A study of Mus musculus with 8 samples.

Results

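The red cell membrane and regulator genes described here are 8 protein-coding mouse genes: Slc4a1, Rhag, Car1, Car2, Epor, Klf1, Gata1 and Hemgn. They were taken by symbol, through their Ensembl identifiers, from a table of 50462 genes, and all 8 were among the 18707 genes that received an adjusted p. The libraries were RNA-seq of cartilage caps dissected from the medial side of the knee of wild-type male C57BL/6J mice, 1 library per mouse. Naïve mice (n = 4) had no surgery and were taken at day 0, aged 11 weeks. DMM mice (n = 4) had the medial meniscus of the left knee destabilised at the age of 11 weeks by cutting the medial meniscus tibial ligament, a model of post-traumatic osteoarthritis, and were taken at day 42, aged 17 weeks. Without sham-operated mice, an effect of surgery and an effect of the older age at day 42 cannot be told apart.

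Red cells are made in the marrow from nucleated erythroid precursors, which respond to erythropoietin through its receptor and switch on a programme driven by Gata1 and Klf1. Late in that programme the precursors fill with haemoglobin and build a membrane in which the anion exchanger encoded by Slc4a1 swaps chloride for bicarbonate, the ion that carbonic anhydrases make from carbon dioxide. Cartilage has no blood supply of its own, while the marrow lies in the bone beneath it.

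Total estimated counts ran from 12479442 to 16548001 per library, and no 2 replicates of a group agreed within counting noise. The libraries are labelled as chondrocytes, and all 12 markers of a chondrocyte list had counts in them, with summed normalised counts of 40817 to 80136 in naïve and 101769 to 173369 in DMM mice. Erythroid genes were also abundant. Slc4a1 alone took on average 0.11% of all counts in naïve and 0.0607% in DMM libraries, Car2 took 0.0567% and 0.0328%, and Hemgn 0.0223% and 0.0123%. A normalised count is the estimated count divided by the library's DESeq2 size factor.

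The sequences just upstream of 4 of the genes are shown because these stretches hold the letters recognised by GATA factors. RefSeq promoters on GRCm38 (250 bases before and 50 after the start site) were found for 5 of the 8 genes, Hemgn, Klf1, Epor, Rhag and Gata1. The motifs AGATAA or TGATAA, searched on both strands, were present in 4 of these 5 promoters and in 18.614% of all 32851 promoters of that length. Each line gives the 100 bases before the start site, read 5′ to 3′ on the gene's strand, with the motif in capitals (TTATCA and TTATCT are TGATAA and AGATAA on the opposite strand).
Klf1, plus strand, chr8:84901882-84901981: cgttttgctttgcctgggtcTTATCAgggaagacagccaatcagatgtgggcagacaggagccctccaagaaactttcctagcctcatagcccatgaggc
Epor, minus strand, chr9:21963577-21963676: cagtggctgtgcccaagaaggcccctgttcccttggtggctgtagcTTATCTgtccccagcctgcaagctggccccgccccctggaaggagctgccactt
Rhag, plus strand, chr17:40811049-40811148: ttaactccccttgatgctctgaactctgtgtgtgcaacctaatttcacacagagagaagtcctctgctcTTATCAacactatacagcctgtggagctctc
Hemgn, minus strand, chr4:46404184-46404283: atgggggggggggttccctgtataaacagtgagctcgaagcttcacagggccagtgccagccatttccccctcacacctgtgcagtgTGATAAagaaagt
RefSeq start sites can differ from the gene coordinates used elsewhere here, which are from GENCODE. The Hemgn window lies inside the gene's GENCODE span, and the Klf1 and Rhag windows run past its start. The match began 80 bases before the start site in Klf1, 54 in Epor, 31 in Rhag and 13 in Hemgn, and Hemgn also held AGATAA 28 bases after it. The Gata1 window held no such match. The CACC-type letters CCACACCC or CCGCACCC, of the kind Klf1 binds, were in 0 of the 5 promoters and in 5.312% of all promoters. Other spellings of this type were not counted, and the Gata1 and Epor promoters hold one of them, CCCCACCC. A match is only a run of letters, and binding was not measured. A link between these matches and the changes of the genes was not tested.

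All 8 genes were lower in DMM than in naïve cartilage, by 1.87-fold (Epor) to 2.24-fold (Car1). Each passed an adjusted p of 0.05 with a change of at least 1.5-fold, the rule for a called gene throughout. Of all genes tested, 5.63% were called lower and 7.38% higher, and the median log2 fold change was -0.01 against -0.97 over the 8 genes. In 5 of the 8, Car1, Car2, Epor, Gata1 and Hemgn, every naïve library lay above every DMM library, an arrangement found in 9.86% of all genes tested. The groups did not overlap, in either direction, for 21.4% of all genes tested. In bulk tissue, fewer cells of a type in the dissected caps and less RNA per cell cannot be told apart. The amount of marrow taken with the cartilage was not measured.

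**Figure D1:**
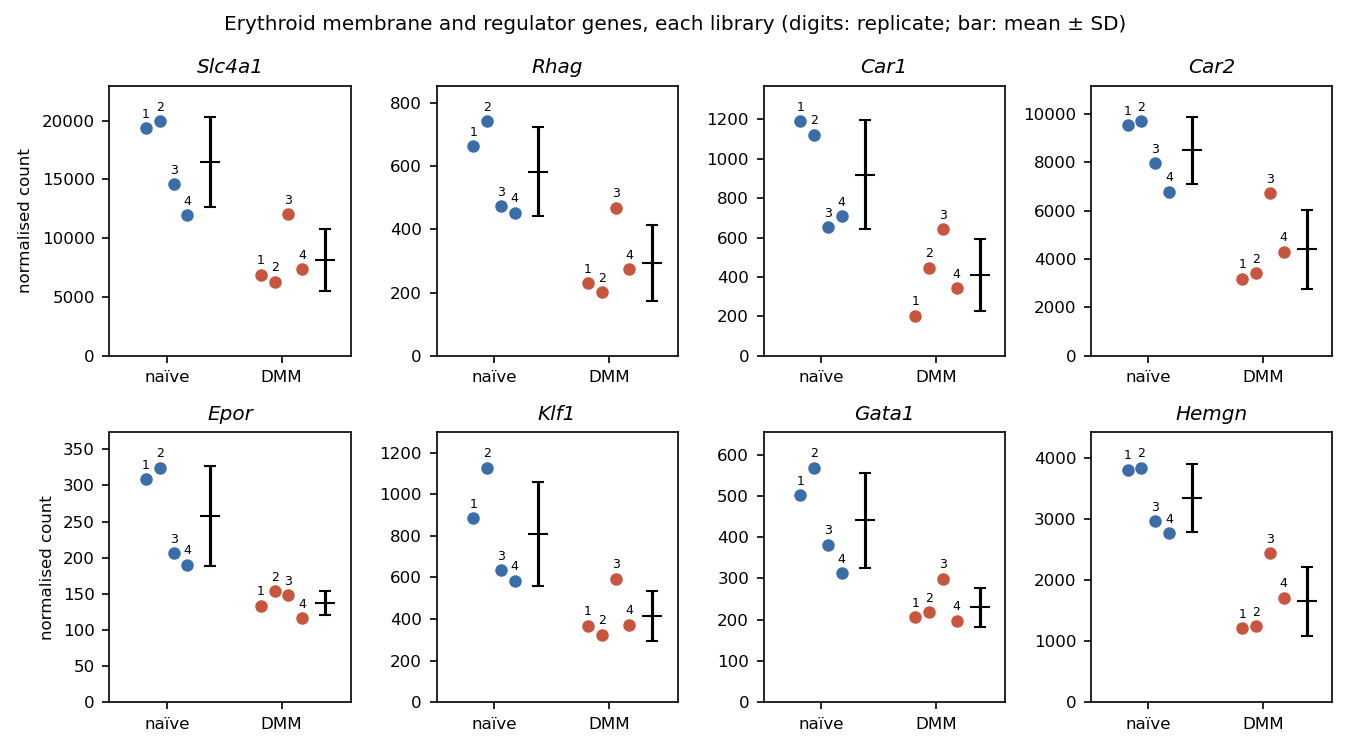
Normalised counts (linear axes from 0) of each gene in 4 naïve (blue) and 4 DMM (red) libraries, numbered by replicate, with the mean ± SD as a bar. In each panel DMM 1, 2 and 4 lie below the 4 naïve libraries, and DMM 3 lies above the other DMM libraries for 7 of 8 genes, the exception being Epor.

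Both genes of membrane transport proteins fell. Slc4a1 (ENSMUSG00000006574, chr11:102348824-102366203 on GRCm38, minus strand) encodes band 3, the anion exchanger that also anchors the membrane skeleton. Its normalised counts were 19365, 19945, 14612 and 11953 in naïve mice 1 to 4 and 6897, 6297, 12044 and 7381 in DMM mice 1 to 4. DMM 3 reached just above the lowest naïve library, naïve 4, and the other DMM libraries lay well below all naïve ones. The group means were 16469 ± 3843 and 8155 ± 2631 (SD, n = 4 each), a log2 fold change of -1.01 (SE 0.22, adjusted p = 0.000101).

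Rhag (ENSMUSG00000023926, chr17:40811126-40840754, plus strand) encodes the Rh-associated glycoprotein, a channel for ammonia that forms part of the Rh complex in the membrane. Normalised counts of Rhag were 662.2, 741, 473.1 and 452.4 in naïve mice and 229.7, 201, 468.4 and 273.5 in DMM mice. The groups again overlapped by DMM 3 alone, which lay between naïve 3 and naïve 4. The means were 582.2 ± 141.9 and 293.2 ± 120.6, and the log2 fold change was -0.99 (SE 0.26, adjusted p = 0.00176).

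The 2 carbonic anhydrases fell with the membrane genes. Car2 (ENSMUSG00000027562, chr3:14886273-14900770, plus strand) encodes the fast cytosolic enzyme, which osteoclasts also use to make acid. Normalised counts of Car2 were 9511, 9686, 7958 and 6768 in naïve and 3182, 3403, 6723 and 4300 in DMM mice. The groups did not overlap, but DMM 3 came close to naïve 4. The means were 8481 ± 1381 and 4402 ± 1621, a log2 fold change of -0.95 (SE 0.22, adjusted p = 0.00033).

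Car1 (ENSMUSG00000027556, chr3:14766216-14808368, minus strand) encodes the slower isozyme that is abundant in red cells. Its normalised counts were 1190, 1121, 652.9 and 709.8 in naïve and 204.8, 447.2, 641.3 and 343.9 in DMM mice, with DMM 3 just below naïve 3. The means were 918.5 ± 276.3 and 409.3 ± 183.8, a log2 fold change of -1.17 (SE 0.30, adjusted p = 0.00122), the largest change and the largest error of the 8. Car1 was also the least certain of them, for its call was lost without naïve 2 (adjusted p = 0.0898), without DMM 2 (adjusted p = 0.0557) or without DMM 4 (adjusted p = 0.0756). Gm5843 shares 20.06% of the 31-base words of the Car1 transcripts, and Gm16399 overlaps Car1 on its strand, so reads may be divided between them.

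Epor (ENSMUSG00000006235, chr9:21958897-21963506, minus strand) encodes the receptor through which erythropoietin keeps erythroid progenitors alive. The 4 naïve mice had normalised counts of 308.7, 324.6, 206.6 and 190.5 and the 4 DMM mice 133.5, 153.7, 148.2 and 116.4, and the groups did not overlap. Unlike the other 7 genes, Epor was highest in DMM 2 among the DMM libraries, and it had the narrowest DMM spread, a CV of 12.1%. The means were 257.6 ± 68.82 and 138.0 ± 16.7, a log2 fold change of -0.90 (SE 0.21, adjusted p = 0.000293).

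The nuclear regulators followed. Gata1 (ENSMUSG00000031162, chrX:7959260-7978071, minus strand) encodes the zinc finger factor that directs erythroid and megakaryocyte differentiation and also acts in mast cells and eosinophils. Its normalised counts were 502.1, 568.1, 382.1 and 312.9 in naïve and 205.7, 218.2, 299.6 and 197.7 in DMM mice. DMM 3 lay just under naïve 4, and the groups did not overlap. The means were 441.3 ± 115.1 and 230.3 ± 47.0, a log2 fold change of -0.94 (SE 0.21, adjusted p = 0.000197).

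Klf1 (ENSMUSG00000054191, chr8:84901928-84905291, plus strand) encodes the erythroid factor that activates adult β-globin and many membrane genes. Its normalised counts were 884.7, 1127, 634.7 and 585.1 in naïve and 369, 324.6, 593.5 and 372.7 in DMM mice. DMM 3 lay above naïve 4, and the other DMM libraries lay below all naïve ones. The means were 807.8 ± 249.8 and 415.0 ± 121.0, a log2 fold change of -0.96 (SE 0.24, adjusted p = 0.000844).

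Hemgn (ENSMUSG00000028332, chr4:46393989-46413506, minus strand) encodes hemogen, a nuclear protein of blood cell progenitors that is strong in erythroid cells. Normalised counts of Hemgn were 3807, 3839, 2966 and 2764 in naïve and 1210, 1243, 2436 and 1714 in DMM mice, without overlap. The means were 3344 ± 559.4 and 1651 ± 571.9, a log2 fold change of -1.02 (SE 0.22, adjusted p = 7.43e-05), the smallest adjusted p of the 8.

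Scaled to exon length, the order of levels was the same in both groups. Car2 stood at 3502 ± 570.2 normalised counts per kb of exon in naïve and 1818 ± 669.3 in DMM mice, and Slc4a1 at 3367 ± 785.8 and 1667 ± 537.8. Hemgn followed at 1332 ± 222.8 and 657.3 ± 227.8, then Car1 at 736 ± 221.4 and 328 ± 147.3, and Klf1 at 528 ± 163.3 and 271.2 ± 79.1. Rhag, Gata1 and Epor closed the order, with naïve levels per kb of 248.9 ± 60.65, 181 ± 47.22 and 129.5 ± 34.6 and DMM levels of 125.3 ± 51.55, 94.46 ± 19.28 and 69.36 ± 8.395. Neighbours in this order that did not differ beyond their spread (means ± SD that overlap) were Car2 and Slc4a1, Car1 and Klf1, Rhag and Gata1, and Gata1 and Epor in both groups, and Hemgn and Car1 in DMM mice.

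The libraries of a group differed from one another in the same way for nearly every gene. Naïve 1 and naïve 2 lay above naïve 3 and naïve 4 for 8 of 8 genes. DMM 3 was the highest DMM library for 7 of 8, at 2.0 times the mean of the other DMM libraries for Rhag, 1.93 for Car1, 1.85 for Car2, 1.76 for Slc4a1, 1.75 for Hemgn, 1.67 for Klf1 and 1.45 for Gata1, but only 1.10 for Epor. Without DMM 3, all 8 genes were still called, with log2 fold changes of -0.94 (Epor, adjusted p = 0.00108) to -1.47 (Car1, adjusted p = 6.02e-06). The DMM mean ± SD of Slc4a1 was then 6858 ± 542.8 and that of Gata1 207.2 ± 10.37 (n = 3).

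**Figure D2:**
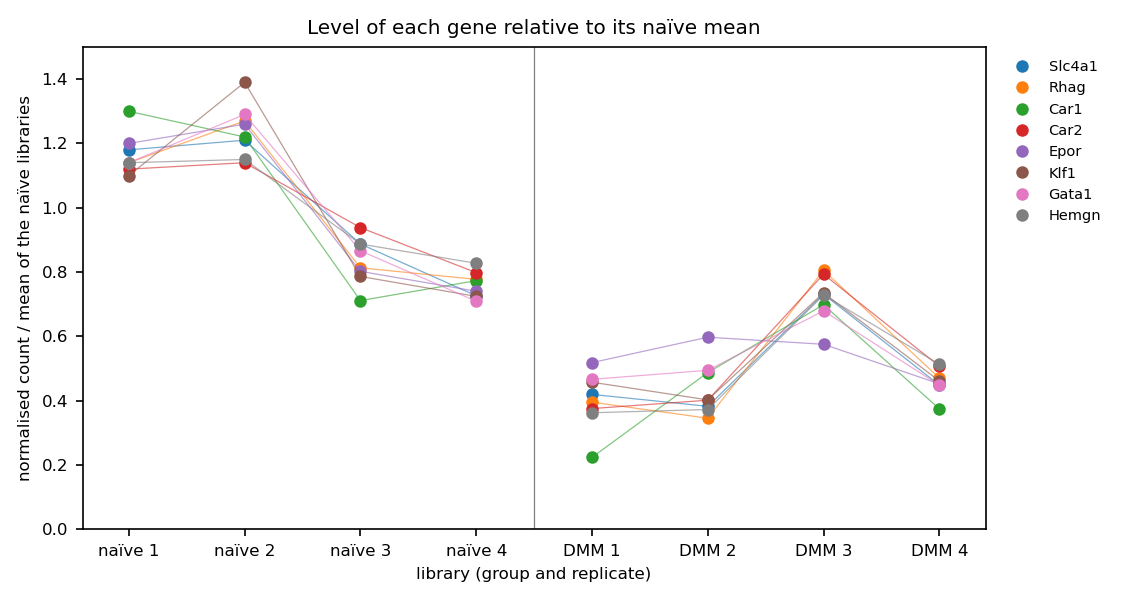
Level of each gene in each library divided by the gene's mean over the naïve libraries (linear axis, 1 = naïve mean); lines only join the values of 1 gene, and replicate numbers have no order. Naïve 1 and 2 lie above 1 and naïve 3 and 4 below it for all 8 genes, and DMM 3 is the highest DMM library for all genes but Epor.

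To ask whether the genes changed by unequal amounts, each was divided by Slc4a1 within each library. None of the 7 log2 ratios passed the test of a difference between DMM and naïve mice (two-sided exact permutation test, adjusted p = 0.95 to 0.971, 0 of 7 with an unadjusted p under 0.05, smallest possible p 0.0286). The difference was closest to 0 for Rhag (-0.00, p = 0.971 by exact permutation) and farthest from it for Car1 (-0.20, p = 0.543 by exact permutation) and Epor (0.16, p = 0.514 by exact permutation). The Epor to Slc4a1 log2 ratio lay between -6.14 and -5.94 in naïve and between -6.34 and -5.35 in DMM mice, and that of Car1 between -4.48 and -4.02 and between -5.07 and -3.81. The DMM ranges of both contained the naïve ranges. With 4 mice a group, a ratio that did not pass may still differ, and the size that could be detected was not tested.

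The wider red cell membrane changed in the same direction. Of 19 membrane and membrane skeleton genes, 16 were called lower, 0 higher, and the median log2 fold change was -0.89. In this list and in the lists of transcription factors, maturation, and globin and haem genes below, 0 genes were higher at an unadjusted DESeq2 p under 0.05, and edgeR called 0 higher. Kel, which carries a blood group antigen, had a log2 fold change of -0.91 (adjusted p = 1.93e-05), Dmtn, the actin bundling protein dematin, -0.89 (adjusted p = 9.05e-05), and Ermap, an erythroid adhesion receptor, -0.92 (adjusted p = 9.79e-05). The 3 not called were the water channel Aqp1 (-0.06), the adducin Add1 (-0.27) and the glucose transporter Slc2a1 (0.16). These 3 are also used by many other cells, and a link between that and their values was not tested.

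Transcription factors and cofactors of the erythroid lineage changed in the same direction, but fewer of them were called. Of 16 such genes, 7 were called lower, 0 higher and 9 were not called, with a median log2 fold change of -0.51. The log2 fold changes ran from -0.89 to -0.02, and 12 genes were lower at an unadjusted DESeq2 p under 0.05. Lmo2, a bridging protein of the Tal1 and Gata1 complex, had a log2 fold change of -0.69 (adjusted p = 1.83e-05) and Tal1 itself -0.89 (adjusted p = 0.000614). Nfe2, a factor for globin and platelet genes, stood at -0.81 (adjusted p = 0.000164) and Lyl1, a relative of Tal1, at -0.74 (adjusted p = 0.00066). The count was 4 without naïve 2. It was 2 when libraries were scaled by total count, where Lmo2 (-0.53) and Lyl1 (-0.58) fell short of 1.5-fold.

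No listed gene of signalling through the receptor was called lower in the main test. Of 15 erythropoietin receptor signalling genes with counts, 0 were called lower and 3 higher, with a median log2 fold change of -0.11, and the hormone gene Epo was listed at 0. Downwards, 5 had an unadjusted DESeq2 p under 0.05, and edgeR called 0 lower and 3 higher. The number called lower was 1 without naïve 3, DMM 1, DMM 2 or DMM 3, 2 without naïve 4, and 3 without a fold threshold. Socs2, a feedback inhibitor of cytokine signalling, rose from 164.5 ± 30.28 to 368.7 ± 24.78 normalised counts, a log2 fold change of 1.17 (adjusted p = 6.43e-11). Socs3, another such inhibitor, had 1.11 (adjusted p = 2.69e-05) and the adaptor Gab1 0.61 (adjusted p = 0.00019), while the kinase Pim1 stood at -0.56 (adjusted p = 0.000237), under 1.5-fold. Gab1 was under 1.5-fold without naïve 1 (0.55), DMM 3 (0.56) or DMM 4 (0.56). Pim1 reached 1.5-fold without naïve 4 (-0.64), DMM 1 (-0.59) or DMM 2 (-0.59). Many cell types use these genes.

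Genes of the last steps of red cell formation were lower too. Of 15 terminal maturation genes, 9 were called lower and 0 higher, with a median log2 fold change of -0.75. Trim58, a ubiquitin ligase linked to enucleation, had a log2 fold change of -0.99 (adjusted p = 0.000193), the nuclear exporter Xpo7 -0.75 (adjusted p = 0.000449), Ypel4 -0.71 (adjusted p = 0.000705) and the ubiquitin ligase Mkrn1 -0.80 (adjusted p = 0.0016). Ypel4 was under 1.5-fold without DMM 2 (-0.58).

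Of 14 globin and haem synthesis genes with counts, 11 were called lower and 0 higher, with a median of -0.88. The haem enzyme Cpox had a log2 fold change of -0.76 (adjusted p = 0.00184), and the mitochondrial iron importer Slc25a37 had -0.81 (adjusted p = 0.00193). Ppox, the enzyme after Cpox, stood at -0.55 (adjusted p = 0.000493), under 1.5-fold, and passed it without naïve 3 (-0.59) or naïve 4 (-0.62). The number of globin and haem genes called lower was 7 without naïve 2 and 13 without DMM 3.

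**Figure D3:**
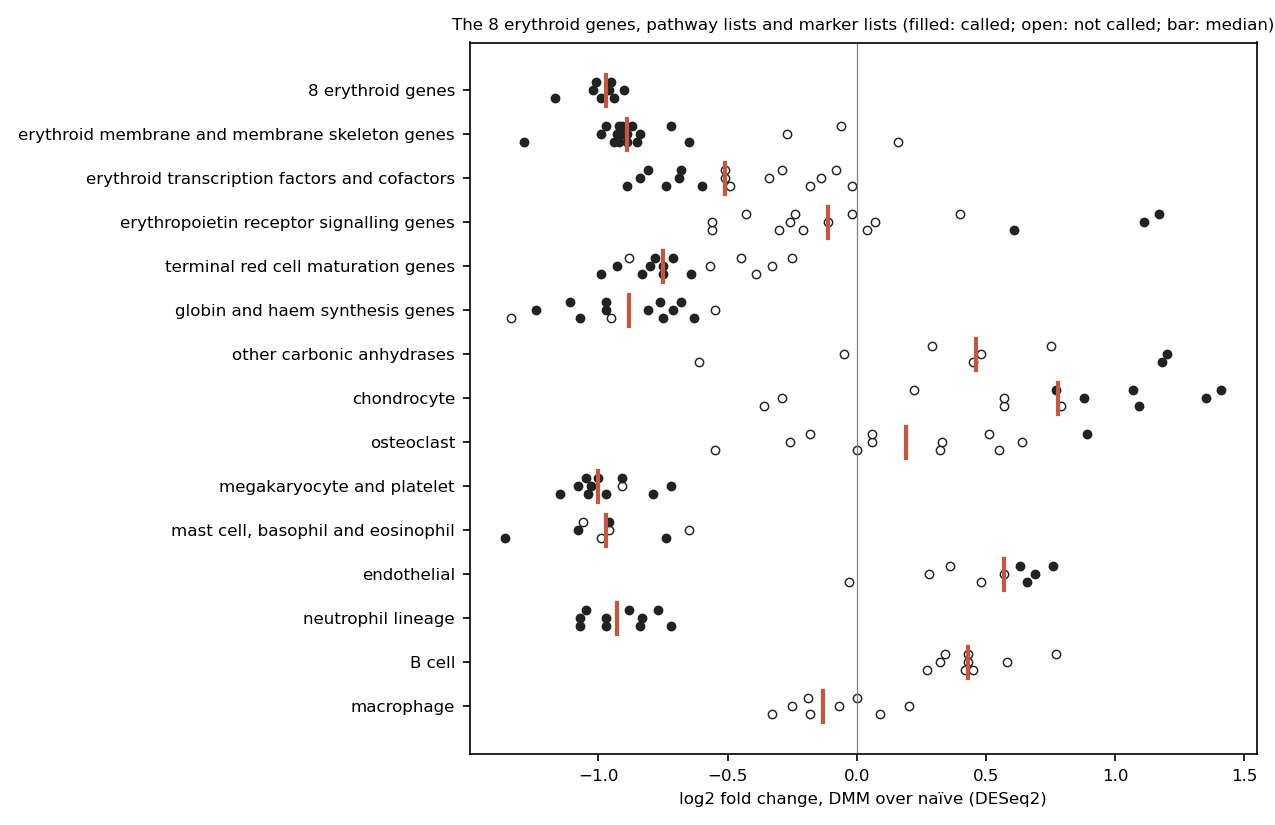
DESeq2 log2 fold change (DMM over naïve) of each gene of the 8 erythroid genes, of the pathway lists and of the marker lists, with called genes filled and list medians as red bars. Each of the 8 erythroid genes lies between -1.17 and -0.90, while erythropoietin receptor signalling genes lie on both sides of 0 and called chondrocyte genes lie above 0.

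The carbonic anhydrases did not move as a family. Car1 and Car2 share a stretch of chromosome 3 with Car13 (chr3:14641727-14663002) and Car3 (chr3:14863512-14872523), all 4 within 259.0 kb, and Car3 lies between Car1 and Car2. Car3, an isozyme typical of skeletal muscle and fat, had 1352 ± 311.4 normalised counts in naïve and 3059 ± 1414 in DMM mice, a log2 fold change of 1.18 (SE 0.37, adjusted p = 0.0114). Its call was lost without naïve 1 (adjusted p = 0.0598), naïve 3 (adjusted p = 0.0544) or DMM 3 (adjusted p = 0.0586). The log2 ratio of Car3 to Car2 rose by 2.07 and that of Car3 to Car1 by 2.30 (two-sided exact permutation test, p = 0.0286, adjusted p = 0.0286 over 2 ratios, the smallest possible), a pair of ratios chosen after the values were seen. Both adjusted p were 0.0571 (exact permutation) without any 1 of the naïve libraries or without DMM 2.

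Among the 14 carbonic anhydrases other than Car1 and Car2, Car4 was listed at 0, 8 were tested, 0 were called lower and 2 higher, with a median log2 fold change of 0.46. At an unadjusted DESeq2 p under 0.05, 0 were lower, and edgeR called 0 lower and 1 higher. The number called higher was 0 without naïve 1 and 1 without naïve 3, DMM 3 or DMM 4. Car8, a relative without enzyme activity, went from 42.2 ± 14.97 to 96.89 ± 50.34 normalised counts (log2 fold change 1.20, adjusted p = 0.0122). Its call was lost without naïve 1 (adjusted p = 0.06) or DMM 4 (adjusted p = 0.0966). The mitochondrial Car5b stood at 0.45 (adjusted p = 0.0956) and was called without naïve 4 (0.63, adjusted p = 0.00533), and the hypoxia-responsive Car9 stood at -0.61 (adjusted p = 0.239).

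For each gene, the genes with the most similar profile were found as the smallest root mean square (RMS) difference in centred log2(normalised count + 1) over the 8 libraries, among 13187 genes with a mean of at least 50. Slc4a1 lay nearest to Tmcc2 (0.048), Sptb, the β-spectrin of red cells (0.065), and Ctse (0.071), against a median of 0.624 over all genes. Hemgn and Car2 were each other's nearest gene (0.062), and the cap protein Tmod1 was among the nearest 3 of both. Rhag lay nearest to Alas2, the first enzyme of haem synthesis in red cells (0.096), then to Epb42 (0.098) and Trim10 (0.099).

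Klf1 was nearest to Tal1 (0.072) and Epb42 (0.095), and the neighbours of Gata1 included Ppp1r15a (0.077) and Nrgn (0.08). Epor was nearest to Parvb (0.078), Rbm38 (0.097) and the platelet glycoprotein Gp5 (0.098). Car1 had no close neighbour, with Art4 nearest at 0.245. All of these profiles share the same 8 libraries and the same size factors, so the distances only describe them.

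Several of the genes are also used by other cells, whose markers were read beside them. The summed normalised count of the 8 genes was 23736 to 37353 in naïve and 12288 to 23354 in DMM mice. Of 11 megakaryocyte and platelet markers, which share Gata1, 10 were called lower, with a median log2 fold change of -1.0 and summed normalised counts of 8045 to 13064 in naïve and 4476 to 5893 in DMM mice. Ppbp and Itga2b of this list had log2 fold changes of -1.15 (adjusted p = 6.85e-13) and -1.03 (adjusted p = 1.58e-07). All 10 neutrophil lineage markers were called lower, with a median of -0.93 and sums of 126857 to 190033 and 55737 to 113866. Of 12 mast cell, basophil and eosinophil markers, 8 were tested and 4 called lower, with a median of -0.97 and sums of 2951 to 10431 and 661 to 6471, and 2 were called without naïve 2 or naïve 3.

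No gene in the marker lists of the other lineages was called lower by DESeq2 or by edgeR, and 1 osteoclast and 1 macrophage marker were lower at an unadjusted DESeq2 p under 0.05. Of 12 osteoclast markers, which share Car2, 0 were called lower and 1 higher, with sums of 17028 to 23959 in naïve and 17770 to 26996 in DMM mice. Acp5 (log2 fold change 0.51, adjusted p = 0.0628) and Ctsk (0.55, adjusted p = 0.0693) did not pass the test, and the number called higher was 4 without naïve 4, 3 without DMM 2 and 4 when libraries were scaled by total count. The integrin Itgb3, which platelets share, stood at -0.55 (adjusted p = 0.000236), under 1.5-fold, and 1 osteoclast marker was called lower without naïve 3 or naïve 4. Of 9 endothelial markers, 0 were called lower and 4 higher (Cdh5 at 0.63), with sums of 4107 to 4711 and 5292 to 6289, and the number called higher was 2 without naïve 1 or naïve 2 and 1 without DMM 2. B cell markers (0 of 9 called, sums 3243 to 4944 and 3581 to 8046) and macrophage markers (0 of 8 called, sums 9032 to 11223 and 8137 to 10167) overlapped between groups. At an unadjusted DESeq2 p under 0.05, 2 B cell markers were higher, and 1 passed the adjusted p with no fold threshold. Of 12 chondrocyte markers, 6 were called higher, Comp by 1.35 and Acan by 1.09 on the log2 scale, with sums that did not overlap. The other 6 were not called, and of these Col9a1 (-0.36) and Matn3 (-0.29) lay below 0 and the rest above it. The part of each of these cell types in the fall of the 8 genes was not tested.

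**Figure D4:**
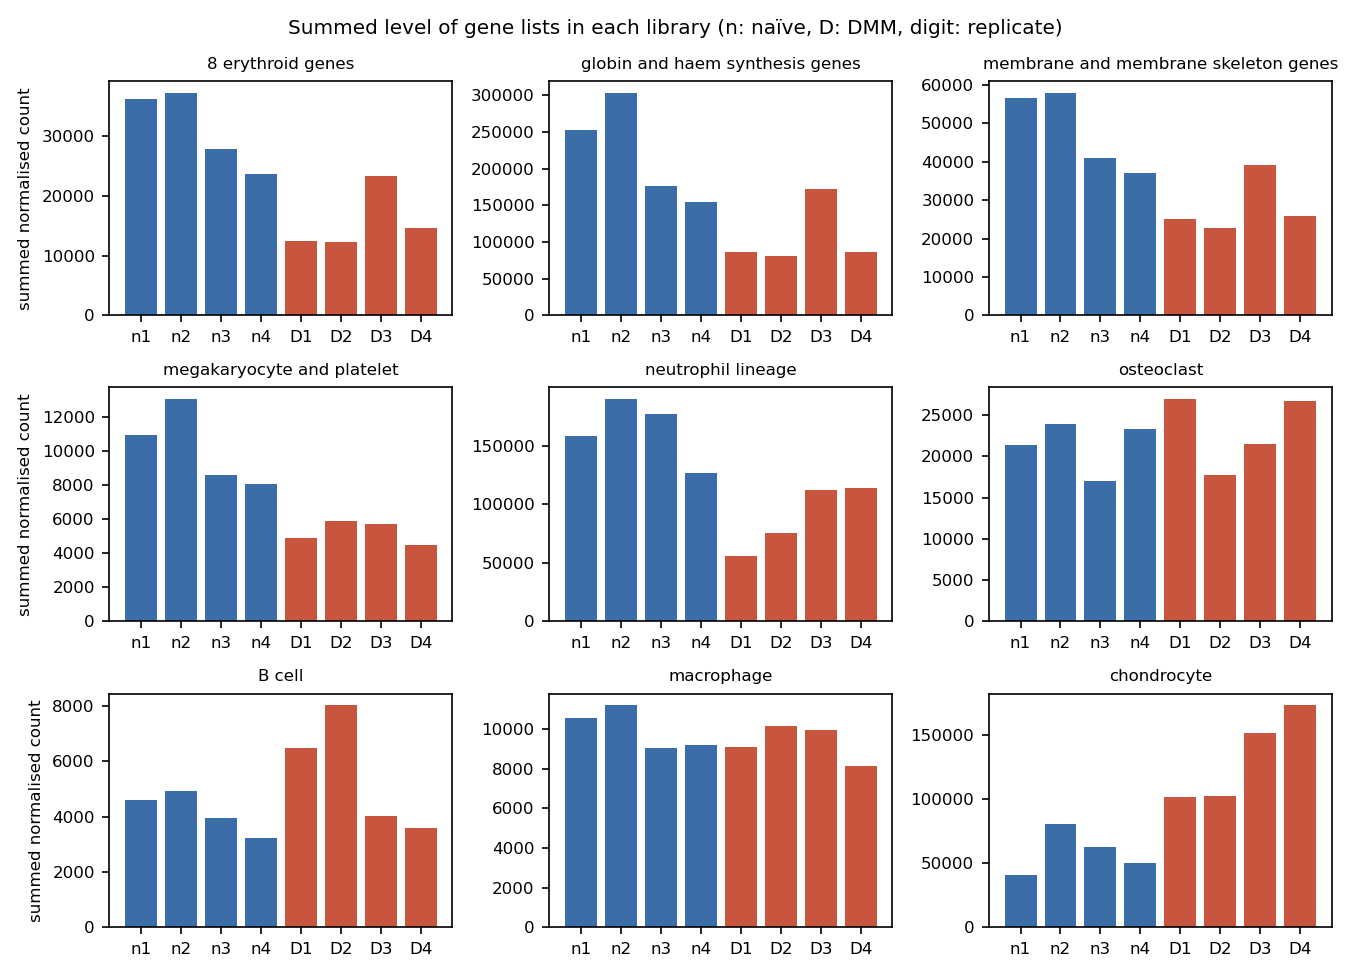
Summed normalised count of 9 gene lists in each library (bars from 0, blue naïve, red DMM). The sums of the 8 erythroid genes, of the megakaryocyte and platelet markers and of the neutrophil lineage markers are lower in each DMM library than in any naïve library, those of the chondrocyte markers are higher, and those of the other lists overlap.

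To set the fall against other cells within a library, Slc4a1 was divided by the first gene of each marker list, a choice made after the values were seen. The log2 ratio of Slc4a1 to Itga2b of megakaryocytes differed by -0.02 between DMM and naïve mice (p = 0.857 by exact permutation) and that to S100a8 of neutrophils by -0.18 (p = 0.6 by exact permutation). The ratio to Col2a1 of chondrocytes differed by -2.43, that to Cd79a of B cells by -1.39 and that to Cd68 of macrophages by -1.12, each with p = 0.0286 by exact permutation, and with every naïve mouse above every DMM mouse. The differences from Acp5 (-1.53) and Pecam1 (-1.01) had p = 0.0571 by exact permutation. A first gene need not stand for its list. Pecam1 had a log2 fold change of -0.03, the lowest of the endothelial list, whose median was 0.57. Acp5 had 0.51, above the osteoclast list median of 0.19. The difference from Cpa3 of mast cells (-0.32) had p = 0.314 by exact permutation. After adjustment over 8 ratios, none passed the threshold, and the smallest adjusted p was 0.0762 (exact permutation).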

How the data were processed

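RNA of medial knee cartilage from 4 naïve and 4 DMM mice was sequenced, 1 library per mouse. Estimated counts per gene were deposited by the authors, who trimmed reads with Trimmomatic, pseudo-aligned them with Kallisto and summed transcripts with Tximport. Of the values, 39.2% were not whole, so counts were rounded. The genome build is uncertain, because the methods pair GRCm38 with an Ensembl release of another assembly and the labels list a human build. The labels and the methods also name different library kits, and strand was not stated. Coordinates are from GENCODE on GRCm38, looked up by identifier.

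DMM was compared with naïve in R 4.3.3 with DESeq2 1.42.0 (Wald test, default filters, no covariates), over all genes, with Benjamini-Hochberg adjustment. edgeR 4.0.16 was an alternative. A called gene had an adjusted p of 0.05 or less and a 1.5-fold change. Log2 ratios within a library used normalised counts plus 0.5, and groups were compared by a two-sided exact permutation test over 70 assignments. Scripts were tested on simulated data.

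The genes, the lists and the tests were chosen with earlier results of these data known. The genes named are the 8, the 4 genes of each pathway list with the smallest adjusted p, and the 3 most similar genes to each, of which 3 genes are not reported here. Genes of the marker lists, the 3 membrane genes not called and Car13 were named after their values were seen. Whether same-numbered libraries share more than a number is not given, and the main test did not pair them (correlations of their deviations from group means -0.181 to 0.098). That mice, not technical repeats, are the replicates is taken from the design.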

Additional observations from a re-analysis of the deposited data

Results flagged for a closer look

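In DMM mice, the summed normalised count of 15 terminal red cell maturation genes was 31052 in DMM 3 and 18756 to 20680 in the other 3 libraries, a gap of 0.844 of the group's whole range. The summed globin and haem synthesis genes stood apart in the same library, at 172410 in DMM 3 against 80989 to 87029, a gap of 0.934 of the range. Both gaps are above Dixon's 95% critical value for 4 samples. In 46 such groups of values, 2.3 are expected by chance, and none of the 8 genes passed on its own. The sums of other lists in DMM 3, relative to the mean of the other DMM libraries, were 2.80 for mast cell, basophil and eosinophil markers, 1.37 for neutrophil lineage markers, 1.12 for megakaryocyte and platelet markers, 1.20 for chondrocyte markers and 0.667 for B cell markers. Their part in the high values of DMM 3 was not tested.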

How the results depend on the processing

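All 8 genes were called lower by edgeR (adjusted p = 0.011 to 0.0302, quasi-likelihood test), under TMM factors, scaling by total count, without filters, with a mean of at least 10 counts, and without a fold threshold, and 7 to 8 were with each library left out. With the replicate number as a block, 7 were called, Car1 being lost (-1.23, adjusted p = 0.0597), as was Car3 (1.09, adjusted p = 0.0862). Genes called in all went from 2434 to 2079 with the block and to 3975 without the fold threshold. The total count as size factor moved the median log2 fold change of all genes from -0.01 to 0.14 and gave 2036 higher and 486 lower calls (80.7% higher), against 1380 and 1054 (56.7%). The 8 genes then lay between -1.01 and -0.74. edgeR did not call Car8 (adjusted p = 0.0509). The number of Car3 ratios past the threshold was 0 of 2 with the replicate block, where the smallest possible p is 0.125, and 0 to 2 with each library left out. Differences in ratio to Slc4a1 changed sign for Rhag (-0.05 to 0.04), Car1 (-0.39 to 0.03), Car2 (-0.01 to 0.11) and Hemgn (-0.10 to 0.03) when libraries were left out, as did Slc4a1 to Itga2b (-0.21 to 0.16) and to S100a8 (-0.37 to 0.03). Of 224 values of named genes under alternatives that keep all libraries, 215 kept their call and 0 reversed. The cause of these shifts was not tested. The number of mice limits all comparisons, and sequence shared with Gm5843 may limit Car1, though a division of its reads was not tested.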
